A study of Mus musculus with 8 samples.

Results

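Integrins and laminins are the matrix receptors and the basement membrane proteins through which fibroblast-like cells hold on to their surroundings, and their genes were followed here in 4 mouse fibrosarcoma cell lines. The members were protein-coding genes of the deposited count table whose symbols name an integrin alpha chain, an integrin beta chain or a laminin alpha, beta or gamma chain. Described here are 34 of the 18768 genes in the table: 16 integrin alpha chains, 8 integrin beta chains, 5 laminin alpha chains, 3 laminin beta chains and 2 laminin gamma chains. Itgam and Itgad, which the same naming rule would take, were not analysed here. The rule used symbols only and no measured value.

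Each line was grown out of a fibrosarcoma induced in a mouse with the carcinogen methylcholanthrene. MC010 and MC011 are labelled IRF8 KO (tumors of mice that lacked the transcription factor IRF8 in every cell), and MC654 and MC659 are labelled WT (tumors of wild-type mice). Cells were freed by collagenase, grown for at least 10 passages and sequenced untreated, with 2 libraries per line. The comparison of the labels therefore rests on 2 lines against 2. Whether the 2 lines of a label came from separate tumors or mice is not stated in the sources used here. No label says that the 2 libraries of a line were separate cultures, and p-values over libraries measure only the spread between these libraries. The libraries held 74063616 to 116206078 counts, and the log2 levels of the libraries of a line correlated across genes with r of 0.994 in every line. Vim, 1 of 8 fibroblast and mesenchymal markers chosen, was at 4532 to 7384 CPM (counts relative to the TMM-scaled library total) throughout. Others on that list were less even. Pdgfra ranged from 17.1 to 446 CPM, Thy1 from 8.68 to 72.3 and Dcn from 9.97 to 92.7, and Lum was at no more than 0.222 CPM. RNA of the targeted gene did not follow the labels. Irf8 had 442 and 347 counts in MC010 and 32 and 10 in MC011, but 1 and 2 counts in MC654 and 1 and 0 in MC659. In the study's PCR typing of genomic DNA, the genotype of each line was that of its label. The counts cover the whole gene and do not show which exons were read, and groups are named by their labels throughout.

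An integrin is a pair of 1 alpha and 1 beta chain that spans the cell membrane, binds matrix outside and the actin skeleton inside, and is known by the ligand that its pair recognizes. A laminin is a cross-shaped trimer of 1 alpha, 1 beta and 1 gamma chain that forms the sheet of a basement membrane, and its beta and gamma chains leave the cell only together with an alpha chain. Fibroblasts and their tumors are known for integrins that bind fibronectin, and laminin alpha chains are known to differ between tissues more than the widely made beta and gamma chains do.

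The promoters of 5 members are shown first, those that were called different between the labels with every line left out in turn and that had an entry among the RefSeq promoters (build GRCm38.p6). Each is the 250 bases before a RefSeq start of the gene, read 5′ to 3′ along the strand of the gene. The GC box (GGGCGG on either strand) is in capitals. Itga1, Itga8 and Lama5 were higher under the IRF8 KO label, and Itga5 and Itgb1, which form the classical fibronectin receptor, were lower.
Itga1, chr13:115101965-115102214, minus strand: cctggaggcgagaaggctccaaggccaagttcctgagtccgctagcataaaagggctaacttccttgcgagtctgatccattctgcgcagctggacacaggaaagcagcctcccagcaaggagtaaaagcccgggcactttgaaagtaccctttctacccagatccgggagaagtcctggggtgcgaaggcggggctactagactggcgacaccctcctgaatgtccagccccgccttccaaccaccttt
Itga8, chr2:12301945-12302194, minus strand: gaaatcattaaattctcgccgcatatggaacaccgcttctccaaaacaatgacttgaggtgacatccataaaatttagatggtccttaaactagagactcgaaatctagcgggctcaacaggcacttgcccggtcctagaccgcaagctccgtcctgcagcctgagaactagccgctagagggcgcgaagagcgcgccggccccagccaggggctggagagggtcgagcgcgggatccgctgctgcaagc
Lama5, chr2:180225860-180226109, minus strand: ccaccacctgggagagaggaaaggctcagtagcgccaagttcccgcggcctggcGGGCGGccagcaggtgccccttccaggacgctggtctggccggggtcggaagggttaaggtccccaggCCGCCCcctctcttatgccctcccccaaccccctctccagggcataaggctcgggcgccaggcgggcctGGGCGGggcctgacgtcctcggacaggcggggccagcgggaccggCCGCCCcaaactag
Itga5, chr15:103366792-103367041, minus strand: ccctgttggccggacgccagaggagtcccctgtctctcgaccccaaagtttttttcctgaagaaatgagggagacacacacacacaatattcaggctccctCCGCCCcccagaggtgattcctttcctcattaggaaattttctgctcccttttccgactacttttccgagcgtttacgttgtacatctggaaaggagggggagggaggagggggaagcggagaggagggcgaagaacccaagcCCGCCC
Itgb1, chr8:128685404-128685653, plus strand: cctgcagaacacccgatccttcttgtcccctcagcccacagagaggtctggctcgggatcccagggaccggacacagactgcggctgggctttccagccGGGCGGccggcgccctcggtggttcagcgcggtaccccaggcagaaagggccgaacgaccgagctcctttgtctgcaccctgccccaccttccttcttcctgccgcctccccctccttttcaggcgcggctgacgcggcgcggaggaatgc
The Lama5 window held 4 copies of the GC box, that of Itga5 held 2 and that of Itgb1 held 1, and these letters were in neither the Itga1 nor the Itga8 window. Of the 34 members, 22 had a RefSeq promoter, and 7 of these held a GC box, against 32.9% of all 27025 promoters of the same length. A RefSeq start can lie away from the gene start in the count table. The farthest were those of Itga9 (105002 bases), Lamb3 (94295), Lama2 (2816) and Itgb8 (526). On either strand, TGACTCA (AP-1) was in 1, that of Itgax, against 4.43%, CCAAT was in 3 (Itgax, Itgb8 and Lamb1) against 34.5%, and TATAAA was in none of the 22 against 13% of all. Members' windows had a median GC content of 58.6%, between 43.6% and 72.4%, beside a median of 52% over all promoters. These are descriptions of letters in a window and not of binding.

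Between the labels, 3 of 4 collagen-binding chains (Itga1, Itga2 and Itga10) and 3 of 4 laminin-binding chains (Itga6, Itga7 and Itgb4) were called higher in the lines labelled IRF8 KO, as were Itga8, Lama4, Lama5 and Lamc3. Both chains of the classical fibronectin receptor, Itga5 and Itgb1, were called lower, as were Itgb2, Itgb3 and Lama3. Of the 34 members, 28 passed the filter on low counts and were tested, and 6 were not (Itgae, Itgal, Itgax, Itgb6, Lama2 and Lamb3). A call needed an adjusted p below 0.05 together with a log2 difference over 0.59 in size, and adjusted p-values are those of edgeR's quasi-likelihood test, adjusted by Benjamini-Hochberg over the 15153 genes tested. Higher under the IRF8 KO label were 10 members (35.7% of those tested), beside 13.7% of all genes tested. Lower were 5 members (17.9%), beside 8.72% of all genes. Together 15 members (53.6%) were called, beside 22.5% of all genes. Of the 28 tested, 14 had label groups that did not overlap in CPM (50%), beside 42.5% of all genes tested. Each of these 14 had the smallest p that an exact two-sided permutation of 4 against 4 libraries allows, 0.0286. Over lines, 2 against 2, no such test can go below 0.333. The median log2 difference was 0.54 over the tested members and 0.02 over all genes. In bulk RNA, fewer cells that express a gene and less RNA per cell cannot be told apart.

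The calls rest on libraries, 2 of which share each line. With each of the 4 lines left out in turn, 6 members were called every time: Itga1, Itga5, Itga8, Itgb1, Itgb4 and Lama5. The share of all genes called every time was not computed, so this count is not read as a trait of the members. Itgb2, Itgb3 and Lama4 kept their call in 3 of these 4 fits, Itga6 and Itga7 in 2, Itga2, Itga10 and Lamc3 in 1, and Lama3 in 0. After the counts of a line's libraries were summed, edgeR called 0 members and 0 genes. By their unadjusted p, 13 members passed 0.05, as did 3658 of the 16927 genes that this fit tested. The share of members was not computed for this fit, so the 13 is not read as a trait of the members. In limma-voom the line was entered as a random block, in which libraries of a line correlated at 0.83. This fit called 7 of the 28 members and 1876 of the 15153 genes tested. The 7 were Itga5, Itga6, Itgb1, Itgb2, Itgb3, Itgb4 and Lama5, and the calls of Itga1 (adjusted p = 0.0607), Itga8 (0.126), Itga7 (0.112), Lamc3 (0.231), Itga10 (0.266), Lama4 (0.275), Itga2 (0.338) and Lama3 (0.472) were lost, 2 of them among the 6 above. Adjusted p-values between the labels given below are those over libraries, without this block.

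**Figure D1:**
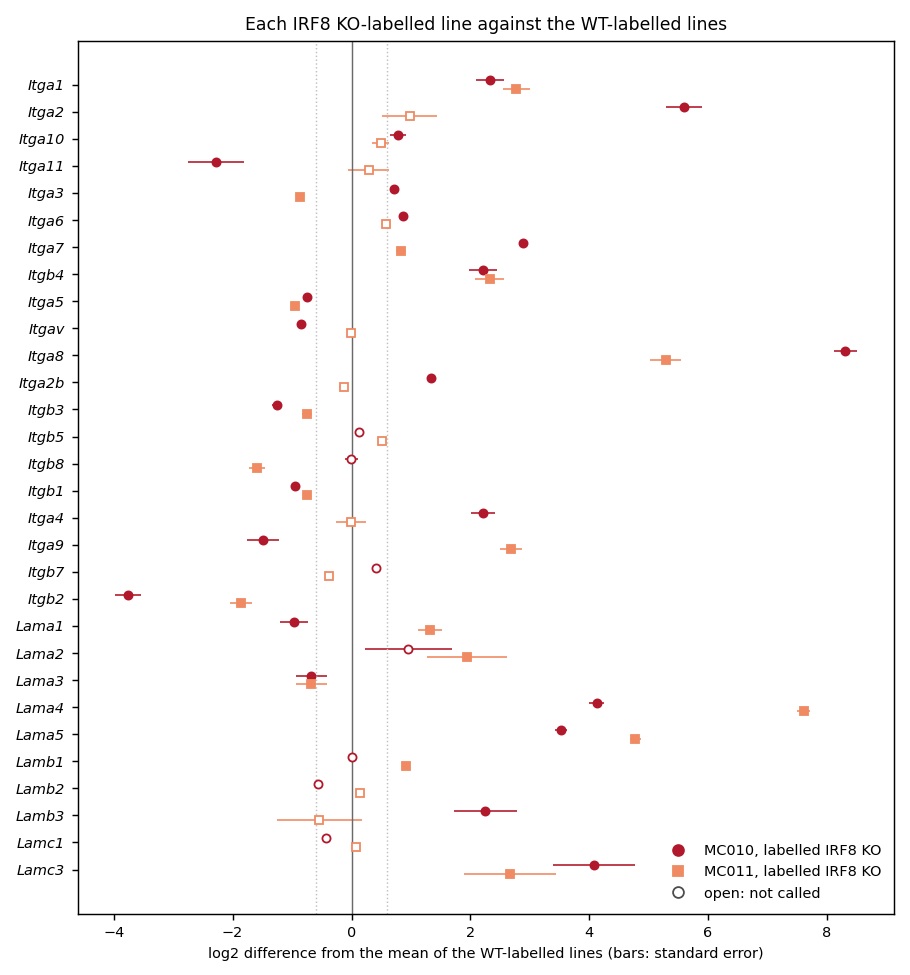
The log2 difference (horizontal axis) of MC010 and of MC011 from the mean of the WT-labelled lines is plotted for 30 members, integrins above laminins, with standard errors as bars and the threshold of 0.59 as dotted lines; filled symbols were called. Itga8 lies farthest to the right in MC010 and Lama4 in MC011, Itga2 lies at 5.59 in MC010 and 0.98 in MC011, and Itga3, Itga9 and Lama1 lie on opposite sides of 0 in the 2 lines. Itgax is left out because both MC011 libraries had 0 counts.

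Each IRF8 KO-labelled line was also set against the mean of the WT-labelled lines in a fit with 1 group per line, which tested 16703 genes and 31 members. In MC010, 14 members were higher (45.2%), beside 20.6% of all genes, and 10 were lower (32.3%), beside 16.5%. In MC011, 11 were higher (35.5%), beside 18.4%, and 8 were lower (25.8%), beside 12.9%. These comparisons share the WT libraries, so the values are set side by side below, by the role of the chain, and their agreement is not counted as a result. Levels are in CPM and are given in the order library 1 and library 2 of each line, and differences are log2 differences with standard errors (SE).

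The chains that pair with Itgb1 to bind collagen were all low, and 3 of the 4 were called higher under the IRF8 KO label. Itga1, a receptor for basement membrane and fibrillar collagens, was at 1.57 and 2.38 CPM in MC010, 2.61 and 2.75 in MC011, 0.252 and 0.424 in MC654, and 0.419 and 0.478 in MC659. All 4 IRF8 KO-labelled libraries lay above all 4 WT-labelled ones, by a log2 difference of 2.56 (SE 0.29, adjusted p = 0.000361). The differences were 2.33 (SE 0.24) for MC010 and 2.77 (SE 0.23) for MC011 against the WT lines. Itga1 (ENSMUSG00000042284, mm10 chromosome 13, 114953096 to 115101964, minus strand) shares 685 exon bases with Gm49395, a gene of the same strand that is not in the table. Itga2, the collagen receptor of platelets and epithelia, was at 3.87 and 3.35 CPM in MC010, 0.207 and 0.0760 in MC011, 0.0599 and 0.0471 in MC654, and 0.0793 and 0.122 in MC659. It was high in MC010, and the MC011 libraries overlapped with those of MC659. Its label difference was 4.57 (SE 1.25, adjusted p = 0.0222), moved to 3.94 without library 1 of MC010 and did not pass without either library of MC654 (adjusted p = 0.0643 and 0.0664) or either library of MC659 (0.0636 and 0.0526), while MC010 differed from the WT lines by 5.59 (SE 0.30) and MC011 by 0.98 (SE 0.47, adjusted p = 0.0811).

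Itga10, known from cartilage, was at 3.79 and 4.09 CPM in MC010, 3.03 and 3.39 in MC011, 2.04 and 2.40 in MC654, and 2.45 and 2.22 in MC659. The groups did not overlap, and the label difference was 0.65 (SE 0.16, adjusted p = 0.0141). It was 0.57, under the threshold, without library 2 of MC010, and Itga10 shares 1739 exon bases with Gm42957 on the same strand, which had at most 9 counts. Itga11, a fibrillar collagen receptor of fibroblasts, was at 0.0787 and 0.0680 CPM in MC010, 0.550 and 0.342 in MC011, 0.0599 and 0.0824 in MC654, and 1.62 and 2.10 in MC659. MC659 stood above the other lines, the groups overlapped, and the label difference of -1.89 (SE 1.19) was not called (adjusted p = 0.251). The difference of MC654 from MC659 was -4.68 (SE 0.44, adjusted p = 1.44e-06).

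Of the laminin-binding chains, Itga6, Itga7 and Itgb4 were called higher under the IRF8 KO label, and Itga3 went in opposite directions in the lines of that label. Itga6, a laminin receptor that pairs with Itgb1 or Itgb4, was at 406 and 431 CPM in MC010, 340.0 and 348 in MC011, 268 and 283 in MC654, and 192 and 191 in MC659. The groups did not overlap, with a label difference of 0.71 (SE 0.16, adjusted p = 0.00879). MC010 differed from the WT lines by 0.87 (SE 0.04) and MC011 by 0.58 (SE 0.04), the latter under the threshold. Itgb4, which pairs only with Itga6 and anchors epithelia through hemidesmosomes, was at 2.06 and 1.48 CPM in MC010, 2.17 and 1.68 in MC011, 0.288 and 0.400 in MC654, and 0.363 and 0.489 in MC659. All IRF8 KO-labelled libraries were higher, by a log2 difference of 2.26 (SE 0.24, adjusted p = 0.000306), but at a level far under that of Itga6: per kilobase of exon, Itgb4 was at 0.252 CPM in MC010 and Itga6 at 46.4. Itgb4 shares 537 exon bases with a gene of the opposite strand, B230344G16Rik, which had at most 15 counts, and the strand setting of the counting is not given in the sources used here.

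Itga7, the laminin receptor of muscle, was at 36.2 and 34.3 CPM in MC010, 8.37 and 8.60 in MC011, 4.47 and 4.07 in MC654, and 5.45 and 5.12 in MC659. MC010 stood apart, and MC011 was above both WT-labelled lines. The label difference was 2.19 (SE 0.53, adjusted p = 0.0131), with 2.89 (SE 0.07) in MC010 and 0.83 (SE 0.08) in MC011. Itga3, a laminin receptor that pairs with Itgb1, was at 289 and 269 CPM in MC010, 97.0 and 90.4 in MC011, 200.2 and 179.8 in MC654, and 154 and 154 in MC659. MC010 was the highest and MC011 the lowest line, and no difference was called between the labels (0.12, SE 0.39, adjusted p = 0.841). MC010 differed from the WT lines by 0.71 (SE 0.05, adjusted p = 8.23e-10) and MC011 by -0.87 (SE 0.05, adjusted p = 1.96e-10).

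Markers of other cells also differed between the lines. The 7 epithelial markers in the table summed to 531 to 565 CPM in MC010, 36.6 to 38.5 in MC011 and 114 to 129 in the WT-labelled libraries. Krt8 and Krt18 gave most of this. Of the 6 epithelial markers tested, Epcam was called higher under the IRF8 KO label (2.20, SE 0.48, adjusted p = 0.00858), with 0.367 and 0.313 CPM in MC010 and 1.19 and 0.797 in MC011. Esrp2 was at 2.53 and 2.76 CPM and Krt14 at 0.757 and 1.02 CPM in MC011, above all other libraries, and Cdh1 was at 0 to 0.394 CPM over the libraries. The 3 muscle markers in the table summed to 3.24 to 3.52 CPM in MC010, 0.0253 to 0.0519 in MC011 and 0.867 to 1.15 in the WT-labelled libraries. Among them Myod1 was at 2.46 and 2.78 CPM in MC010, 0 in MC011 and at most 0.136 in the WT-labelled lines, while Acta1 was at 0.507 and 0.449 CPM in MC010, at most 0.0519 in MC011 and 0.700 to 1.05 in the WT-labelled lines. The 3 Schwann cell markers in the table summed to 1.55 to 3.22 CPM under the IRF8 KO label and 0.192 to 0.884 under the WT label, with Erbb3 (2.35, SE 0.54) and Ngfr (3.00, SE 0.74) called higher. Their part in the levels of Itga2, Itga7 and Itgb4 was not tested.

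**Figure D2:**
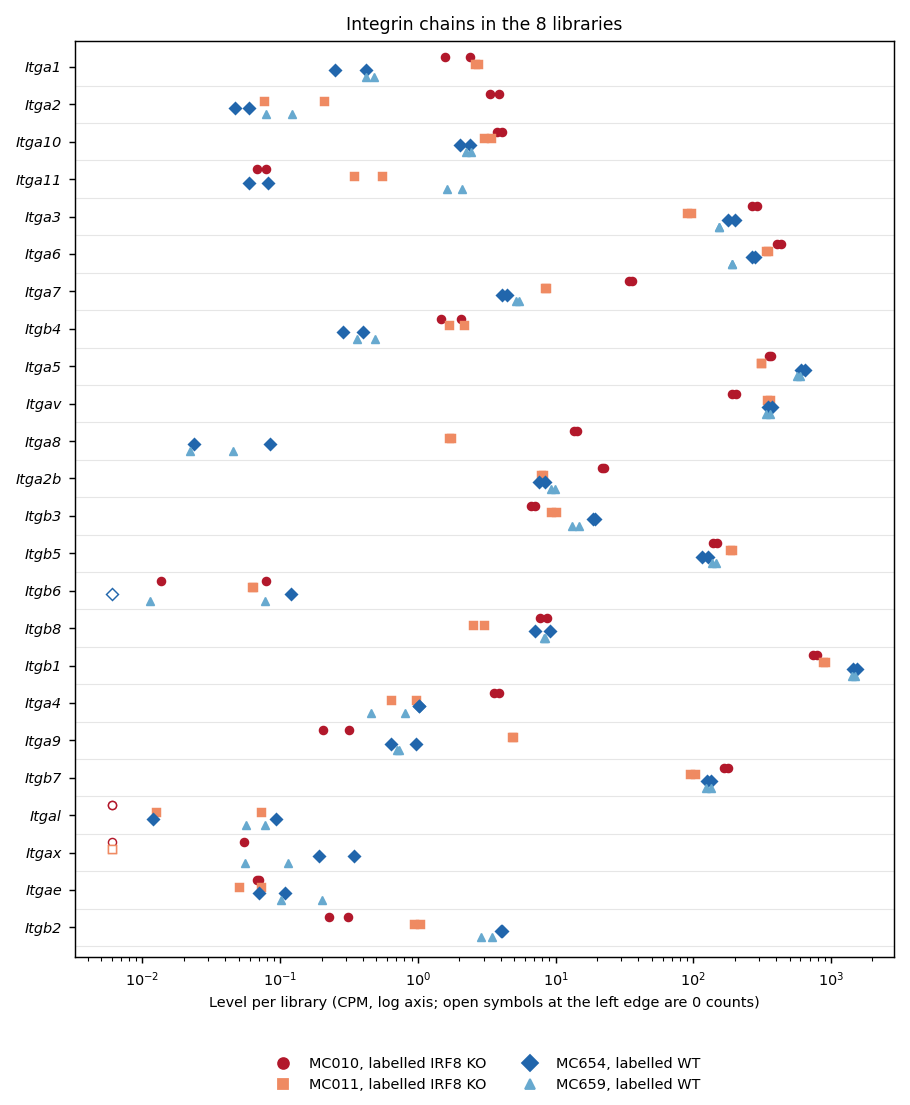
Levels of the 24 integrin chains (CPM, log axis) are plotted with 1 point per library and 1 symbol per line, ordered by ligand class from collagen-binding to leukocyte chains. Itgb1 lies at 741 to 1548 CPM in all libraries, Itga8 spans from under 0.1 CPM in the WT-labelled lines to about 14.2 in MC010, and Itgal, Itgax and Itgae lie at the left.

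The alpha and the beta chain with the highest levels per kilobase of exon in every line, Itga5 and Itgb1, were lower in the lines labelled IRF8 KO. Itgb1, the beta chain shared by most matrix receptors, was at 741 and 788 CPM in MC010, 871 and 901 in MC011, 1453 and 1548 in MC654, and 1488 and 1431 in MC659. All IRF8 KO-labelled libraries were below all WT-labelled ones, with means of 825 ± 73.5 and 1480 ± 50.8 CPM (SD, n = 4 libraries each). The label difference was -0.84 (SE 0.07, adjusted p = 0.000109), and the largest adjusted p with a line left out was 0.00563. Itga5, its fibronectin-binding partner, was at 367 and 354 CPM in MC010, 312 and 311 in MC011, 643 and 605 in MC654, and 566 and 599 in MC659. The groups were again apart, at 336 ± 28.7 and 603 ± 31.4 CPM, a log2 difference of -0.84 (SE 0.07, adjusted p = 0.000119). In MC010 the log2 differences were -0.95 (SE 0.04) for Itgb1 and -0.74 (SE 0.04) for Itga5, and in MC011 -0.74 (SE 0.04) and -0.96 (SE 0.04). Itgb1 (ENSMUSG00000025809) lies on mm10 chromosome 8, 128685654 to 128733200, plus strand, and Itga5 (ENSMUSG00000000555) on chromosome 15, 103344286 to 103366763, minus strand.

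Itga8, another partner of Itgb1 that binds the RGD motif (arginine, glycine, aspartate) of fibronectin and nephronectin, was close to absent in the WT-labelled lines. It was at 13.7 and 14.2 CPM in MC010, 1.74 and 1.68 in MC011, 0.0839 and 0.0235 in MC654, and 0.0453 and 0.0222 in MC659. The WT-labelled libraries held 7, 2, 4 and 2 counts of it, 15 in all, against 2906 counts under the IRF8 KO label. The ratio of the levels was 185, with an exact 95% interval of 112 to 331 that covers counting error only. The fitted difference was 7.45 (SE 1.06, adjusted p = 0.00115), and MC010 was 3.02 higher than MC011 (SE 0.16, adjusted p = 4.17e-11). Itga8 (ENSMUSG00000026768) lies on mm10 chromosome 2, 12106632 to 12301922, minus strand.

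Of Itgav and its tested partners, whose pairs bind vitronectin, fibronectin and latent TGF-beta, Itgb3 was called between the labels and Itgav, Itgb5 and Itgb8 were not. Itgav was at 190.5 and 205 CPM in MC010, 345 and 362 in MC011, 351 and 375 in MC654, and 359 and 335 in MC659. MC010 was low and the other 3 lines overlapped, so that the label difference was not called (-0.36, SE 0.22, adjusted p = 0.221), while MC010 differed from the WT lines by -0.84 (SE 0.05). Itgb3, its partner for vitronectin, was at 6.59 and 7.05 CPM in MC010, 9.26 and 10.1 in MC011, 18.6 and 19.2 in MC654, and 14.8 and 13.2 in MC659. The groups did not overlap, and Itgb3 fell by 0.99 (SE 0.19, adjusted p = 0.00443). Itgb5, a vitronectin receptor chain that pairs with Itgav, was at 148 and 139 CPM in MC010, 191 and 183 in MC011, 127 and 116 in MC654, and 138 and 146 in MC659. The groups overlapped and the label difference of 0.33 (SE 0.12) was not called (adjusted p = 0.0669).

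Itgb8, a partner known for activating TGF-beta, was at 8.66 and 7.74 CPM in MC010, 2.50 and 3.00 in MC011, 7.04 and 9.18 in MC654, and 8.45 and 8.26 in MC659. MC011 was the low line, at -1.59 from the WT lines (SE 0.13, adjusted p = 1.38e-08), and no label difference was called (adjusted p = 0.292). Itga2b, the fibrinogen receptor chain of platelets, was at 22.5 and 21.6 CPM in MC010, 7.87 and 8.13 in MC011, 8.32 and 7.61 in MC654, and 9.29 and 9.93 in MC659. MC010 was high, by 1.33 over the WT lines (SE 0.07, adjusted p = 3.75e-11), and MC011 overlapped with MC654. None of the 4 platelet markers chosen was in the table. Itgb6, the epithelial partner of Itgav, was at most 0.12 CPM and was not tested.

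Itga4, Itga9 and Itgb7 share ligands such as VCAM-1, and none was called between the labels. Itga4 was at 3.87 and 3.55 CPM in MC010, 0.643 and 0.975 in MC011, 1.02 and 1.02 in MC654, and 0.804 and 0.456 in MC659. MC010 stood above the other lines, by 2.21 over the WT lines (SE 0.21, adjusted p = 6.49e-08), and MC011 was at -0.0028 from them (SE 0.25, adjusted p = 0.996). The label difference of 1.45 (SE 0.61, adjusted p = 0.0974) passed without library 1 of MC011 (1.76, adjusted p = 0.0319). Itga4 shares 1124 exon bases with Cerkl of the opposite strand, which had at most 22 counts. Itga9 was at 0.315 and 0.204 CPM in MC010, 4.83 and 4.91 in MC011, 0.635 and 0.965 in MC654, and 0.703 and 0.734 in MC659. MC011 was high and MC010 low, at 2.68 (SE 0.19) and -1.50 (SE 0.27) from the WT lines, the widest gap among the members between the lines labelled IRF8 KO apart from Itga2. Itgb7, a beta chain best known from lymphocytes, was at 178 and 167 CPM in MC010, 103 and 95.2 in MC011, 134 and 126 in MC654, and 123 and 134 in MC659. Per kilobase of exon it was at 35.8 to 62.3 CPM over the lines, while its known partners Itga4 and Itgae were at no more than 0.266 and 0.033. MC010 was higher than MC011 by 0.80 (SE 0.06, adjusted p = 3.03e-09).

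Of the leukocyte chains, Itgal, Itgax and Itgae were near 0, and Itgb2 was called lower under the IRF8 KO label. Itgal was at 0 to 0.0941 CPM and Itgae at 0.0506 to 0.2 CPM, and neither was tested. Itgax, a chain of dendritic cells, was at 0 and 0.0544 CPM in MC010, 0 and 0 in MC011, 0.192 and 0.341 in MC654, and 0.113 and 0.0556 in MC659. It had 4 counts in all under the IRF8 KO label, all in library 2 of MC010, and 60 counts under the WT label, a ratio of the WT to the IRF8 KO label of 15.7 (exact 95% interval 5.83 to 59.6, counting error only). Itgb2, the beta chain that leukocytes share, was at 0.227 and 0.313 CPM in MC010, 1.04 and 0.937 in MC011, 4.06 and 4.05 in MC654, and 2.87 and 3.48 in MC659. All IRF8 KO-labelled libraries were below the WT-labelled ones, and Itgb2 fell by 2.52 (SE 0.50, adjusted p = 0.00577), with MC010 lower than MC011 by 1.90 on the log2 scale (SE 0.26). From 11 leukocyte markers chosen, 6 were in the table. They summed to 6.30 to 8.17 CPM under the IRF8 KO label and 9.92 to 11.6 under the WT label. Of the 3 that passed the filter, Csf1r was called lower under the IRF8 KO label (-1.93, SE 0.31, adjusted p = 0.00200), Cd68 was at -0.58 (SE 0.13, adjusted p = 0.00838), just under the threshold on size, and Fcer1g at 0.33 (SE 0.65). The 3 that did not pass went the other way in MC010. Ptprc (CD45), which defines leukocytes, was at 0.157 and 0.177 CPM in MC010, 0 in MC011 and at most 0.0240 in the WT-labelled lines. Laptm5 was at 0.595 and 0.381 CPM in MC010 and at most 0.0222 in the other lines. Cd79a was at 0.0874 to 0.190 CPM under the IRF8 KO label and 0.0222 to 0.0680 under the WT label. The part of these markers in the Itgb2 and Itgax levels was not tested.

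Per kilobase of exon, which allows levels of different genes to be compared, the make-up of integrin RNA differed between the lines. Itgb1 gave 64.1% of the summed beta chain level in MC010, 70.5% in MC011, 80.9% in MC654 and 79.8% in MC659. Itgb7 gave 21.3% in MC010 and 10.4% to 11.6% in the other lines. Among alpha chains, Itga5 gave 36.8% in MC010, 40.8% in MC011, 55.8% in MC654 and 58.5% in MC659. Itga6 gave 23.4% and 24.6% in the lines labelled IRF8 KO and 13.5% and 10.5% in those labelled WT. The summed alpha level was 199 CPM per kilobase in MC010, 155 in MC011, 227 in MC654 and 202 in MC659, and the summed beta level 292, 308, 454 and 448. These shares describe the lines and were not tested.

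**Figure D3:**
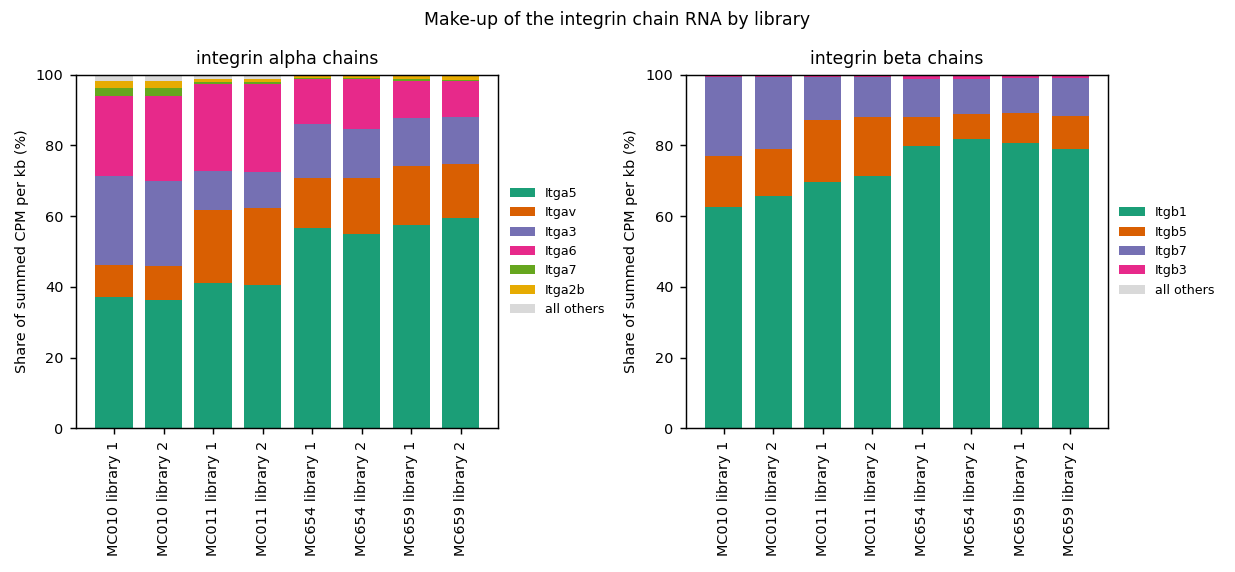
Stacked bars give the share (%) of each chain in the summed integrin alpha (left) and integrin beta (right) RNA of each library, on levels per kilobase of exon. Itga5 and Itgb1 fill more of the bars of MC654 and MC659 (Itgb1 at least 78.9%) than of MC010 and MC011 (at most 71.4%), and Itgb7 is widest in MC010.

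Among laminins the alpha chains set the lines apart: Lama4 and Lama5 were called higher under the IRF8 KO label by large amounts, and Lama3 was called lower. Lama4, the alpha chain of vessel, muscle and fat basement membranes, was at 4.93 and 5.32 CPM in MC010, 57.6 and 56.9 in MC011, 0.384 and 0.459 in MC654, and 0.261 and 0.144 in MC659. The groups were far apart, and MC011 was above MC010 as well. The label difference was 6.64 (SE 1.09, adjusted p = 0.00226), with 4.12 (SE 0.13) in MC010 and 7.61 (SE 0.10) in MC011 against the WT lines. With MC659 left out the adjusted p was 0.0580. Lama5, the widespread alpha chain of adult basement membranes, was at 22.1 and 23.2 CPM in MC010, 60.1 and 47.9 in MC011, 1.64 and 1.26 in MC654, and 2.87 and 2.46 in MC659. Again no library of one label reached the other, and the groups differed by a log2 difference of 4.22 (SE 0.45, adjusted p = 0.000288). MC010 differed from the WT lines by 3.53 (SE 0.10) and MC011 by 4.78 (SE 0.10). Lama5 (ENSMUSG00000015647) lies on mm10 chromosome 2, 180176373 to 180225859, minus strand, and Lama4 (ENSMUSG00000019846) on chromosome 10, 38965515 to 39110188, plus strand.

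Lama3, the alpha chain of epithelial laminin, was at 0.586 and 0.544 CPM in MC010, 0.602 and 0.532 in MC011, 1.11 and 1.07 in MC654, and 0.804 and 0.700 in MC659. The groups did not overlap, but the label difference of -0.70 (SE 0.22, adjusted p = 0.0379) passed in only 1 of 8 fits with a library left out, that without library 2 of MC659 (0.0359), and the other 7 gave adjusted p-values of 0.0597 to 0.104. Lama1, the alpha chain of embryonic laminin, was at 0.542 and 0.408 CPM in MC010, 2.29 and 2.46 in MC011, 1.21 and 1.09 in MC654, and 0.714 and 0.845 in MC659. MC011 was the highest line and MC010 the lowest, at 1.32 (SE 0.20, adjusted p = 2.03e-05) and -0.97 (SE 0.24, adjusted p = 0.00174) from the WT lines, and the label difference of 0.56 (SE 0.59) was not called. Lama2, the muscle alpha chain, was at 0.0787 and 0.0952 CPM in MC010, 0.156 and 0.190 in MC011, 0.0120 and 0.0118 in MC654, and 0.204 and 0.100 in MC659. It was not tested between the labels. Its call in MC011 (1.94, SE 0.67, adjusted p = 0.0194) was lost without any of 5 of the 6 libraries compared, with adjusted p-values of 0.0614 to 0.110. The 6 endothelial markers in the table summed to 11.5 to 14.4 CPM under the IRF8 KO label and 3.00 to 3.72 under the WT label. Egfl7 (1.96, SE 0.15, adjusted p = 6.57e-05), Tek (2.37, SE 0.48, adjusted p = 0.00575) and Tie1 (0.405 to 1.49 CPM against 0 in every WT-labelled library) were called higher under the IRF8 KO label, whereas Pecam1 was at no more than 0.286 CPM, Cdh5 at no more than 0.412 and Kdr at no more than 0.354. Their part in the Lama4 and Lama5 levels was not tested.

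**Figure D4:**
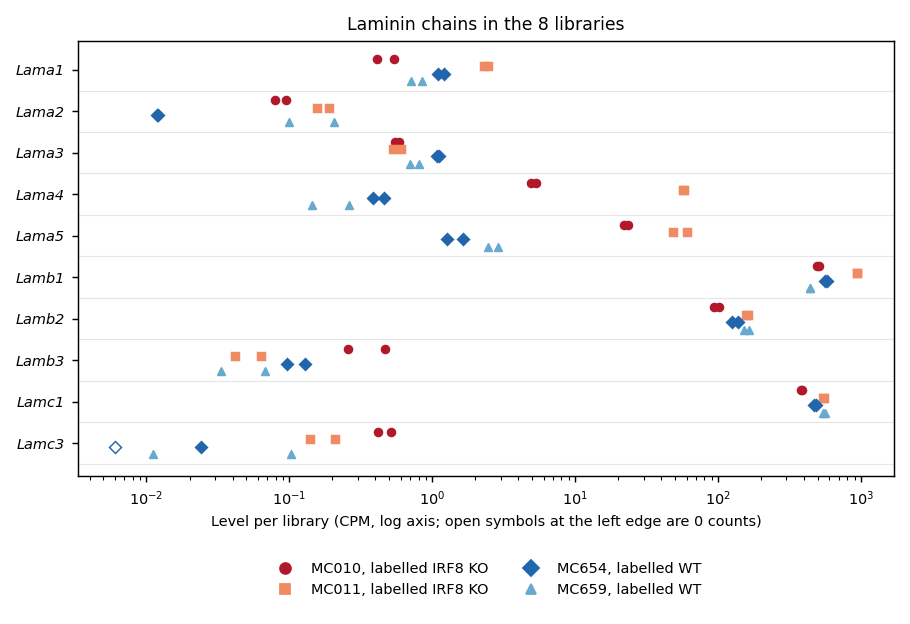
Levels of the 10 laminin chains (CPM, log axis) are plotted with 1 point per library and 1 symbol per line. Lama4 and Lama5 spread over more than 1 power of 10 between the labels (Lama4 from 0.144 to 57.6 CPM), while Lamb1, Lamb2 and Lamc1 stay at the right in all lines.

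The laminin beta chains were not called between the labels. Lamb1, the beta chain of most laminins, was at 507 and 490.0 CPM in MC010, 939 and 934 in MC011, 578 and 554 in MC654, and 435 and 439 in MC659. MC011 was the high line, by 0.91 over the WT lines (SE 0.04, adjusted p = 7.89e-13), and MC010 lay between MC654 and MC659. Lamb2, the beta chain of vessels and nerve endings, was at 102 and 93.7 CPM in MC010, 162 and 155 in MC011, 138 and 124 in MC654, and 151 and 164 in MC659. MC010 was the lowest line, at -0.56 from the WT lines (SE 0.05), which missed the threshold on size. Lamb3, the beta chain of epithelial laminin, was at 0.463 and 0.259 CPM in MC010, 0.0415 and 0.0633 in MC011, 0.0959 and 0.129 in MC654, and 0.0680 and 0.0333 in MC659. It was highest in MC010 and was not tested between the labels. Its call in MC010 against the WT lines (2.25, SE 0.53, adjusted p = 0.00124) was lost without library 1 of MC010 (adjusted p = 0.0877).

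Of the gamma chains, the abundant Lamc1 was not called between the labels, and the scarce Lamc3 was called higher under the IRF8 KO label. Lamc1, the gamma chain of most laminins, was at 386 and 378 CPM in MC010, 548 and 539.9 in MC011, 486 and 466 in MC654, and 543 and 561 in MC659. The groups overlapped, with a difference of -0.15 (SE 0.14, adjusted p = 0.451). Lamc3 was at 0.420 and 0.517 CPM in MC010, 0.207 and 0.139 in MC011, 0.0240 and 0 in MC654, and 0.102 and 0.0111 in MC659. The WT-labelled libraries held 12 counts in all against 117, a ratio of 9.30 with an exact 95% interval of 5.13 to 18.5 for counting error. The fitted difference of 3.17 (SE 0.86, adjusted p = 0.0217) did not pass without library 1 of MC654 or library 2 of MC659 (0.0668 each). Library 1 of MC659 held 9 of the 12 counts, and without it the difference was 4.62 (adjusted p = 0.00899).

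Per kilobase of exon, alpha chain RNA was scarce beside Lamc1 RNA in every line, and least so in MC011. The summed alpha level was 5.46% of the Lamc1 level in MC010, 14.9% in MC011, 0.666% in MC654 and 0.616% in MC659. In CPM per kilobase the alpha sum was 2.46 and 2.58 in MC010, 10.4 and 9.23 in MC011, 0.406 and 0.362 in MC654, and 0.434 and 0.386 in MC659. Lama5 gave 78.9% of the alpha sum in MC010 and 48.3% in MC011, where Lama4 gave 48.6%. In the WT-labelled lines, where the alpha sum was small, Lama5 again gave the largest share, 33.05% in MC654 and 56.9% in MC659. Lama1 and Lama3 gave 31.0% and 26.6% of the alpha sum of MC654 and 19.8% and 17.1% of that of MC659. Lamc1 was at 46.2 CPM per kilobase in MC010, 65.8 in MC011, 57.5 in MC654 and 66.7 in MC659. RNA levels do not give the amounts of protein or of secreted trimers.

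**Figure D5:**
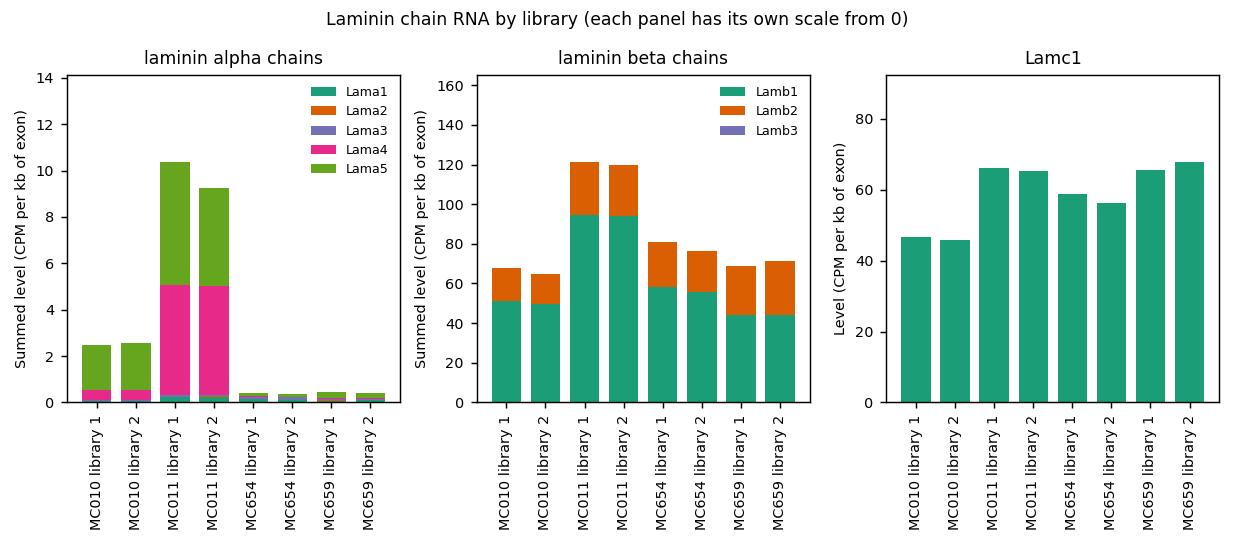
Stacked bars give the summed level (CPM per kilobase of exon) of the laminin alpha and beta chains and the level of Lamc1 in each library, on a separate scale from 0 in each panel. The alpha bars are highest in MC011, at 10.4 and 9.23, lower in MC010 and shortest in the WT-labelled lines, while the beta and Lamc1 bars of all lines lie within a smaller range.

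The lines of a label also differed from each other. Between MC010 and MC011, 18 of 31 members were called (58.1%), beside 32.6% of all genes tested. The greatest differences toward MC010 were those of Itga2 (4.61, SE 0.36), Itga8 (3.02, SE 0.16) and Lamb3 (2.79, SE 0.69), the last lost without library 1 of MC010 (2.28, adjusted p = 0.0648). Toward MC011 they were those of Itga9 (-4.17, SE 0.27), Lama4 (-3.48, SE 0.09) and Itga11 (-2.57, SE 0.46). By role, the difference took in 3 of the 5 laminin alpha chains (Lama1, Lama4 and Lama5), each higher in MC011, and both abundant laminin beta chains, also higher in MC011.

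MC654 and MC659 differed in 4 of 31 members (12.9%), beside 4.58% of all genes. MC654 was lower in Itga11 (-4.68), Lama2 (-3.53, SE 0.96, adjusted p = 0.0224) and Lama5 (-0.87, SE 0.17, adjusted p = 0.00173), and higher in Lama4 (1.06, SE 0.28, adjusted p = 0.0200). The count was 2 without library 2 of MC654 and 3 without any of the other libraries of these lines. Lama2 lost its call in 3 of these 4 fits (adjusted p = 0.136, 0.122 and 0.216), and Lama4 without library 2 of MC654 (0.111) and library 2 of MC659 (0.223).

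Genes that work with these chains were read from lists, with values for at most the 3 called genes of largest difference. Of 9 tested basement membrane partners of laminin, 3 were higher (33.3%) and 1 lower (11.1%) under the IRF8 KO label, beside 13.7% and 8.72% of all genes. Npnt (nephronectin), the ligand of the Itga8 receptor, was at 108 and 111 CPM in MC010, 40.0 and 39.2 in MC011, 9.79 and 9.11 in MC654, and 6.05 and 5.28 in MC659, a difference of 3.31 (SE 0.45, adjusted p = 0.000925). Ntn4, a netrin that binds laminin gamma chains, was at 11.3 and 10.2 CPM in MC010, 35.8 and 33.6 in MC011, 2.19 and 2.28 in MC654, and 2.63 and 3.20 in MC659, a difference of 3.14 (SE 0.47, adjusted p = 0.00150). Npnt and Ntn4 were higher in all 4 IRF8 KO-labelled libraries, as was Nid1 (1.17, SE 0.23), which links laminin to collagen. Of 12 other laminin receptors and their glycosylation enzymes, 2 were higher (16.7%, near the 13.7% of all genes), Bcam (1.99, SE 0.42), a Lama5 receptor that stayed under 1 CPM, and Sgce (1.12, SE 0.11).

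Of 12 tested integrin ligands, 5 were higher (41.7%) and 4 lower (33.3%), beside the same 13.7% and 8.72%. Fn1 (fibronectin), the ligand of the Itga5 and Itgb1 pair, was at 1164 and 1142 CPM in MC010, 2112 and 1931 in MC011, 8132 and 7779 in MC654, and 7885 and 8096 in MC659, and it fell by 2.33 (SE 0.22, adjusted p = 0.000159). Vcam1, a ligand of Itga4, was at 348 and 378 CPM in MC010, 227 and 233 in MC011, 27.7 and 30.1 in MC654, and 30.4 and 31.0 in MC659, a difference of 3.31 (SE 0.19, adjusted p = 1.48e-05). No library of one label reached the other for either gene, whereas Icam1, a leukocyte integrin ligand, overlapped between the labels and was high in MC011 only (3.92 and 4.03 CPM, label difference 3.99, SE 1.32). Of 27 adhesion complex genes, 4 were higher (14.8%, near the share of all genes) and 5 lower (18.5%), led by Ptk2b (2.28, SE 0.27), a kinase related to focal adhesion kinase, Tgfb1i1 (-1.84, SE 0.15), a paxillin relative, and Kank1 (1.75, SE 0.27). Of 8 lateral partners, 3 were higher (37.5%), the tetraspanins Cd82 (2.25, SE 0.33) and Cd9 (1.48, SE 0.11), and Cav1 (1.09, SE 0.26). The median log2 difference was 0.60 for the basement membrane partners, -0.02 for the other laminin receptors, 0.60 for the ligands, 0.10 for the adhesion complex and 0.28 for the lateral partners, beside 0.02 for all genes.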

How the data were processed

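RNA was sequenced from 8 libraries of 4 cell lines, 2 per line. The authors used STAR for alignment to mm10, HTSeq for counting per gene and DESeq2 for the genotypes; the submitters' processing notes list STAR 2.7.3a and HTSeq 0.11.2. The deposited table holds a raw count per gene and library, which was used here. It also holds a signal (the deposited counts divided by a size factor) and the authors' own comparison: the mean of the signal, the log2 fold change and its error, the Wald score, and p-values before and after adjustment. None of these was used. The kit kept strand, and the strand setting used in counting was not given in the sources used here. The lowest count of a gene, added over the libraries, was 20. Genes on the sex chromosomes were not analysed here. Besides Itgam and Itgad, a further gene that the naming rule takes is not reported here. No column of per-sample values was left without a library.

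Tests on the counts used edgeR 4.0.16 (R 4.3.3) (TMM, filterByExpr, robust quasi-likelihood test, Benjamini-Hochberg adjustment over all genes tested), once with 1 group per label (15153 genes) and once with 1 group per line (16703 genes). Exact tests used log2(CPM + 0.05). Standard errors were derived from the log2 difference and the F statistic. CPM per kilobase used the merged exon length of GENCODE M21, in which 32 of the 34 members had the coordinates of the table, and 10 members share exon bases with another gene. On simulated counts with 200 changed genes, the label fit recovered 197 with 5 false calls among 15469 genes, and the line fit 197 with 6 among 16083. Apart from the changes put in, the simulated lines shared 1 mean level per gene. These false calls therefore do not cover differences between lines of a label, which the data hold. The libraries of a line differed by more than sampling noise (chi-square per degree of freedom 7.60 to 13.1), so they were not copies of each other. Each was entered as 1 library. This check cannot show whether they were separate cultures. The intervals given cover counting error only.

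Members, lists and tests were chosen with earlier results of these data known. By the rule for named genes, members called in any comparison or at 10 CPM or more in any line were given with every library's value, and at most 3 called genes of each further list were named. Alternatives were DESeq2 1.42.0, limma 3.58.1 with the line as a random block, line sums, other scalings and filters, the library number as a block, and each library or line left out. Those for single lines against the WT lines were chosen after seeing the data.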

Additional observations from a re-analysis of the deposited data

Results flagged for a closer look

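Of 68 groups of 4 libraries examined over the members, 1 held a library far from the others: library 2 of MC010 had 0.0544 CPM of Itgax, on 4 counts, while the other 3 libraries labelled IRF8 KO had 0. The rate of about 1 in 20 groups by chance holds for independent values. Libraries of a line are not independent, so that rate does not apply to these groups.

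For 18 members, a difference between MC010 and MC011 was called in the fit with 1 group per line (edgeR, adjusted by Benjamini-Hochberg). The test sets one tumor line against another. It cannot show whether an effect of the label differs between them, because neither line has a WT-labelled partner of its own. MC010 was above MC011 in log2 by 4.61 for Itga2, 3.02 for Itga8, 2.79 for Lamb3, 2.21 for Itga4, 2.06 for Itga7, 1.59 for Itgb8, 1.58 for Itga3, 1.47 for Itga2b and 0.80 for Itgb7. The log2 difference of MC010 from MC011 was -4.17 for Itga9, -3.48 for Lama4, -2.57 for Itga11, -2.29 for Lama1, -1.90 for Itgb2, -1.25 for Lama5, -0.91 for Lamb1, -0.84 for Itgav and -0.69 for Lamb2. No cause of these differences was tested.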

How the results depend on the processing

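Between the labels, 10 members were higher and 5 lower, and the counts were within 1.5 times of these under DESeq2, no filter on low counts, both other scalings and no threshold on the fold. Line sums gave 0 and 0 members and 0 and 0 genes, in place of 2083 genes higher and 1321 lower. The random line block gave 3 and 4 members, 1037 and 839 genes. Without MC654 there were 6 and 2 members, 1222 and 857 genes, and without MC659 5 and 4 members, 1185 and 699 genes. Without MC010 there were 2679 and 2056 genes, and without MC011 3159 and 2668. With no threshold on the fold, 3151 and 2524 genes passed, and MC654 and MC659 differed in 12 members in place of 4. The share of all genes that differed between these 2 lines was not computed at that setting. The 12 is therefore not read as a trait of the members. With a library left out, members numbered 8 to 11 higher and 4 to 5 lower, genes 1812 to 2222 and 1080 to 1434, and members between MC654 and MC659 2 to 3.

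Library numbers did not pair the lines (r of deviations between -0.03 and 0.06). With the number as a replicate block, 10 members were higher and 4 lower (Lama3 lost its call, adjusted p = 0.0598), with 1917 and 1189 genes, 18 members between MC010 and MC011, 4 between MC654 and MC659, 24 in MC010 and 19 in MC011 against the WT lines.

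Label differences of uncalled members turned sign as follows. Without MC010, Itga3 gave -0.89 (adjusted p = 0.000593), Itgb7 -0.40 (0.000166), Itga2b -0.15, Itga4 -0.052, Lamb2 0.11 and Lamc1 0.063. Without MC011, Itga9 gave -1.53 (0.00329), Lama1 -1.02 (0.0181) and Lamb1 -0.017. Without MC659, Itga11 gave 1.84 and Itga3 -0.039. With a library left out, Itga3 gave -0.18 to 0.35 and Itgb7 -0.088 to 0.21, both negative only without a library of MC010, and Itga3 gave -0.069 with the random line block. Causes were not tested. At this depth, Itga2, Itga8, Itga11, Lamb3 and Lamc3 rest on few counts in some lines. Itgae, Itgal, Itgax, Itgb6 and Lama2 do so in most or all lines. Itga2 had 5 and 4 counts in MC654, 7 and 11 in MC659, and 20 and 6 in MC011.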
